A study of Arabidopsis thaliana with 24 samples.

Results

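The 6 auxin receptor genes of Arabidopsis thaliana, TIR1 (AT3G62980), AFB1 (AT4G03190), AFB2 (AT3G26810), AFB3 (AT1G12820), AFB4 (AT4G24390) and AFB5 (AT5G49980), were taken by locus from the 33341 loci of the mRNA data. They were set beside the 3 entries named miR393 among the 274 miRNA entries of the small RNA data, which are miR393a-3p, miR393b-3p and miR393b-5p. All 6 receptor genes passed the filter on low counts in every mRNA comparison. Of the miRNA entries, miR393b-3p passed the filter on low signal in both tissues, miR393b-5p in root tips only, and miR393a-3p in neither.

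The libraries came from shoot apices and from root tips of Col-0 wild type and of the rh27-2 line, each with 3 mRNA and 3 small RNA libraries, so 24 libraries in 8 groups. Seedlings of both genotypes were sampled 5 days after germination from Murashige and Skoog plates with 1% sucrose, under 16 h of light and 8 h of dark. RH27 encodes a DEAD-box RNA helicase, and the stated purpose was to follow its effect on miRNAs, their precursors and their targets. The labels do not give the nature of the rh27-2 allele, the number of plants in a library, or whether the replicates were grown separately. The p-values below therefore cover the differences among these particular libraries, which may be technical.

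TIR1 and the AFB proteins are F-box proteins that hold the substrate in SCF ubiquitin ligases. Auxin binds in a pocket that they form with Aux/IAA proteins, the repressors of auxin response, which are then ubiquitinated and degraded. miR393 is known to target the transcripts of TIR1, AFB2 and AFB3, and reports differ on AFB1. AFB4 and AFB5 form a separate branch of the family and are known for binding the auxin herbicide picloram. Mature miR393 is made from 2 loci, MIR393A and MIR393B. Their 5p arm is the strand that acts on the receptors, whereas the 3p arm of miR393b is known to target the membrin gene MEMB12.

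The mRNA libraries held 15603992 to 20380109 counts. The small RNA libraries corresponded to 9355356 to 69589971 reads, with the widest spread in shoot apices. These depths and all small RNA read numbers below assume that the smallest value of a library is a single read. RH27 transcript (AT5G65900) was present in every mutant library. It was 21.8 to 25.5 CPM (counts scaled to a common depth) in wild-type root tips and 12.6 to 14.9 CPM in rh27-2 root tips (log2 fold change -0.80, adjusted p = 8.47e-06, edgeR). In shoot apices it was 26.8 to 34.6 CPM in wild type and 24.0 to 26.8 CPM in rh27-2 (log2 fold change -0.33, adjusted p = 0.0712, edgeR). The tissue labels were checked against marker genes. The photosynthesis genes LHCB1.1, LHCB2.1, RBCS1A and PSAD1 summed to 9230 to 12597 CPM in wild-type shoot apices and 17.1 to 24.2 CPM in wild-type root tips, and the root hair genes EXPA7, COBL9 and RHD6 summed to 0 to 0.365 CPM and 233 to 271 CPM. Because the samples are bulk tissue, fewer cells of a type and less RNA per cell cannot be told apart.

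The small RNA values are reads per 30000000 reads (RP30M), and the 3 miR393 entries differed strongly between tissues. miR393b-3p was the most abundant of them, with 38.5, 45.3 and 47.4 RP30M in wild-type shoot apices and 724, 685 and 994 RP30M in wild-type root tips. Those values rested on 12, 33 and 110 reads in shoot apices and on 410, 422 and 538 reads in root tips. The tissues were far apart, with a log2 difference of 4.15 (SE 0.39) on the log2(RP30M + 1) scale (adjusted p = 8.36e-15, limma). Most miRNA entries were also higher in root tips. Of the 132 tested entries 87.9% differed between the wild-type tissues, 72% were higher in root tips, and the median over all of them was 3.34. An entry could pass this filter through root tips alone and would then tend to be higher there. Within a tissue, 79 entries passed in shoot apices and 125 in root tips. These shares and the median are thus partly set by the filter.

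The 5p arm, which acts on the receptors, was rare. miR393b-5p was listed at 31.8, 30.8 and 36.9 RP30M in the wild-type root tip libraries, from 18, 19 and 20 reads. In wild-type shoot apices it was found only in replicate 3, the most deeply sequenced library, at 0.862 RP30M from 2 reads. It had 0 reads in the other 2 wild-type shoot libraries and in all 3 rh27-2 shoot libraries, where a count of 0 allows up to 1.67 to 9.62 RP30M, taking 3 counts as the floor of a library. The 5p entry was therefore measurable in root tips only, and no fold between tissues is given. miR393a-3p was rarer still, with 7.06, 8.11 and 12.9 RP30M in wild-type root tips from 4, 5 and 7 reads. No 5p entry of miR393a is listed. The 5p arms of both loci are known to share their mature sequence, so the entry miR393b-5p can hold reads of either locus.

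In root tips, miR393b-3p fell in rh27-2. Its level was 200, 215 and 411 RP30M there, from 120, 108 and 215 reads, and every mutant library was below every wild-type library. The group means were 801 ± 168 RP30M in wild type and 275 ± 118 RP30M in rh27-2 (SD, n = 3). The log2 fold change was -1.60 (SE 0.32) with an adjusted p of 2.19e-06 (limma). This was a tissue in which 71.2% of the 125 tested entries were called and 58.4% were lower, with a median over all entries of -0.96, and 20.8% of them had a lower fold change than miR393b-3p. Listed miRNAs were 3.43% to 4.85% of the reads of wild-type root tips and 2.29% to 3.90% of those of rh27-2 root tips. Scaled to the sum of listed miRNAs in place of all reads, miR393b-3p fell by 1.15 (adjusted p = 4.08e-05, limma).

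The rarer entries were also lower in every rh27-2 root tip library than in any wild-type one. miR393b-5p was 4.99, 9.97 and 11.5 RP30M in rh27-2, from 3, 5 and 6 reads, against 33.2 ± 3.29 RP30M in wild type (SD, n = 3). In reads, that is 14 over the mutant libraries and 57 over the wild-type ones. The Wilson 95% intervals, which cover counting error only, ran from 19.7 to 57.1 RP30M over the wild-type libraries and from 1.70 to 25.0 RP30M over the mutant ones, and so overlapped between some libraries. The entry passed the filter only through its wild-type libraries and thus had to be lower, so its call is not counted as support. miR393a-3p was 1.66, 3.99 and 5.74 RP30M in rh27-2, from 1, 2 and 3 reads. A test over 3 libraries against 3 cannot give a two-sided exact permutation p below 0.1. Of all tested entries in root tips, 73.6% had groups that did not overlap.

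In shoot apices no miR393 entry was called, among 79 tested entries of which 44.3% were called. miR393b-3p was 26.1, 30.6 and 26.0 RP30M in rh27-2, from 47, 11 and 33 reads. All 3 values lay below the wild-type range. The entry passed the filter through wild type, since of the rh27-2 libraries only replicate 2 reached 30 RP30M. Its place below wild type is thus partly set by the filter. The log2 fold change of -0.64 (SE 0.43) did not pass the test (adjusted p = 0.224, limma). Groups did not overlap for 50.6% of the tested entries. The genotype effect on miR393b-3p was lower in root tips than in shoot apices by 0.95 on the log2 scale (SE 0.55), a difference that did not pass either (adjusted p = 0.168, limma, with 40.2% of entries called in that comparison). Scaled to the sum of listed miRNAs, that difference was -0.23 (adjusted p = 0.662, limma).

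**Figure D1:**
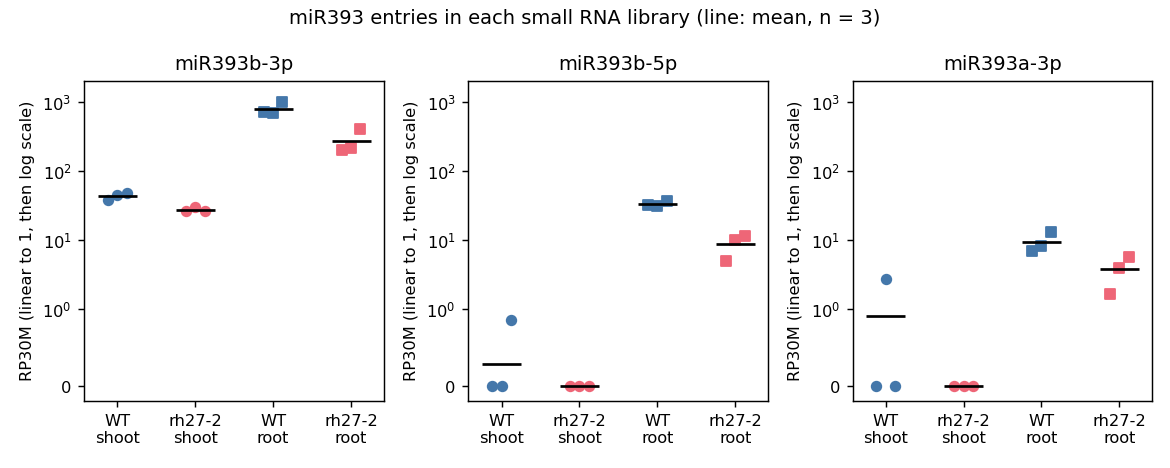
RP30M of the miR393 entries in each small RNA library, on an axis that is linear to 1 and logarithmic above it, with a line at the mean of the 3 libraries of a group. The miR393b-3p values of root tips lie far above those of shoot apices, and the rh27-2 root tip values of all 3 entries lie below the wild-type ones.

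The counts of the precursor loci were close to 0. MIR393A had 1 count in a single rh27-2 shoot library and 0 in every other library. MIR393B had 3, 2 and 2 counts in wild-type root tips and 1, 0 and 0 in rh27-2 root tips, and neither locus was tested.

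In wild type, the receptors were ordered differently in the tissues. Levels are CPM with a common TMM scaling over the 12 mRNA libraries, and levels of different genes are compared per kb of gene span, introns included. In root tips the order was TIR1 at 43.2 CPM per kb, AFB2 at 35.4, AFB1 at 30.9, AFB5 at 24.3, AFB3 at 12.1 and AFB4 at 5.82. In shoot apices it was TIR1 at 31.1, AFB5 at 24.8, AFB2 at 15.8, AFB3 at 8.55, AFB1 at 7.74 and AFB4 at 5.06 CPM per kb. AFB1 thus held 8.03% ± 3.96 of the summed receptor CPM per kb in wild-type shoot apices and 20.4% ± 0.227 in wild-type root tips (SD, n = 3). AFB5 held 26.8% ± 2.93 and 16.0% ± 0.111.

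Of the receptors, 4 were higher in wild-type root tips than in wild-type shoot apices, as were 37.1% of the 20798 tested genes, while 76.3% differed in either direction. AFB1, an F-box protein known for rapid auxin responses in roots, had the largest difference of the 6, at 2.00 on the log2 scale (SE 0.32, adjusted p = 0.000118, edgeR), and 2.63 without wild-type shoot replicate 3, which stood apart for this gene. AFB2 followed at 1.16 (SE 0.087, adjusted p = 1.35e-07), AFB3 at 0.50 (SE 0.11, adjusted p = 0.00132) and TIR1 at 0.48 (SE 0.14, adjusted p = 0.00844). AFB4 at 0.20 (adjusted p = 0.0771) and AFB5 at -0.03 (adjusted p = 0.765) did not pass the test. The AFB4 call turned with the scaling, at an adjusted p of 0.0465 with RLE size factors and 0.0436 with total counts. The median of the 6 was 0.49, against -0.05 over all tested genes.

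**Figure D2:**
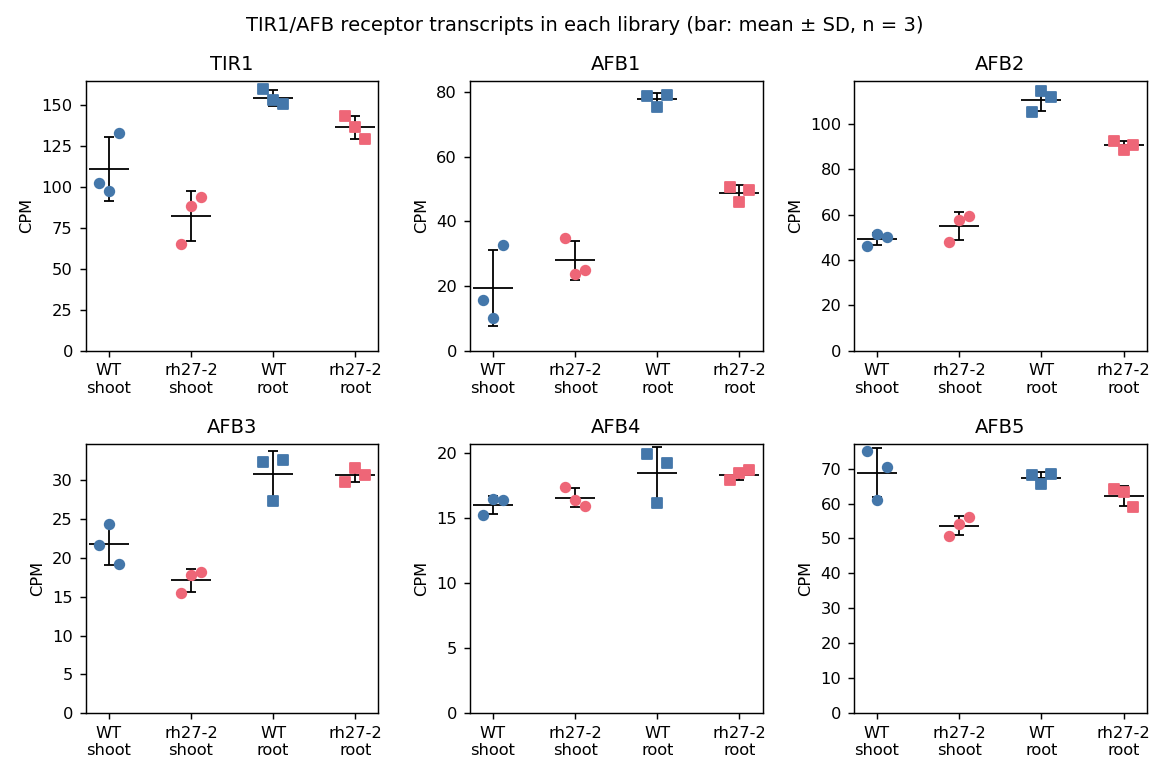
TMM-scaled CPM of each receptor in each mRNA library, with the mean and SD of the 3 libraries of a group. AFB1 and AFB2 show the widest gap between tissues, and the AFB1 values of wild-type shoot apices spread from 10.1 to 32.7.

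In rh27-2 root tips, AFB1, AFB2 and TIR1 fell, while AFB3, AFB4 and AFB5 did not pass the test. These 3 calls of 6 stand beside 62.1% of 19443 tested genes called in either direction with 31.3% called higher and 30.9% lower. The median log2 fold change was -0.15 over the 6 receptors and 0.01 over all tested genes. Fold changes within a tissue come from fits to the 6 libraries of that tissue.

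AFB1 was 78.8, 75.4 and 79.1 CPM in wild-type root tips and 50.7, 46.1 and 49.7 CPM in rh27-2 root tips. The groups were wide apart, and the log2 fold change was -0.68 (SE 0.058, adjusted p = 5.05e-07, edgeR). In absolute size it exceeded the fold change of 72.7% of all tested genes. AFB2 was 105, 115 and 112 CPM in wild type and 92.7, 88.7 and 90.7 CPM in rh27-2, again with no overlap. Its log2 fold change of -0.29 (SE 0.051, adjusted p = 0.000278) exceeded 42.4% of all genes in size.

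TIR1, the founding member of the family, was 160, 153 and 150 CPM in wild-type root tips and 143, 136 and 129 CPM in rh27-2. The groups did not overlap, but the difference was small, at -0.18 (SE 0.052, adjusted p = 0.0081, edgeR). Scaled to total counts the value was -0.09 with an adjusted p of 0.137 (edgeR), so the call rests on the scaling. That scaling moved the median of all genes in root tips by 0.09. Relative to this median TIR1 was at -0.196 under both scalings. In the fit over all 12 libraries, which takes a common spread for both tissues, both TIR1 (adjusted p = 0.326) and AFB1 (-0.67, adjusted p = 0.0972) lost the call.

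The other 3 receptors gave no call in root tips. AFB3 was 30.7 ± 2.99 CPM in wild type and 30.6 ± 0.887 CPM in rh27-2, and AFB4 was 18.4 ± 2.02 and 18.3 ± 0.381 CPM (SD, n = 3). Their log2 fold changes were both -0.01 and were 0.08 with total counts, not called under either scaling. AFB5 was 68.1, 65.7 and 68.4 CPM in wild type and 64.1, 63.4 and 59.0 CPM in rh27-2, which did not overlap, at a log2 fold change of -0.12 (SE 0.056, adjusted p = 0.0759, edgeR). In all, 4 receptors had groups that did not overlap in root tips, as did 68.1% of all tested genes.

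Markers of several root cell types moved with these falls, in a tissue where 31.3% of all genes were called higher and 30.9% lower. The 3 root hair genes were all called lower, and their sum went from 233 to 271 CPM in wild type to 106 to 108 CPM in rh27-2. Of the 4 xylem genes XCP1, XCP2, VND7 and CESA7, 3 were called lower, with a sum of 361 to 429 CPM against 268 to 291 CPM. Of the 3 phloem genes SEOR1, APL and SUC2, 2 were called lower, with 70.2 to 97.9 CPM against 41.5 to 45.9 CPM. Root cap genes (SMB, BRN1, BRN2, CEL5) had 1 call in each direction and went from 151 to 177 CPM to 121 to 138 CPM. Root stem cell niche genes (WOX5, PLT1, PLT2, SCR, SHR) had 3 of 5 called higher, with 139 to 160 CPM against 171 to 187 CPM. None of these markers was at 0 in every root tip library, and their part in the receptor falls was not tested.

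In rh27-2 shoot apices, AFB3 and AFB5 fell. These 2 calls of 6 stand beside 40.9% of 18972 tested genes called in either direction with 21.1% called higher and 19.8% lower. The median log2 fold change was -0.21 over the 6 receptors and -0.02 over all tested genes.

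AFB5 was 74.9, 61.1 and 70.3 CPM in wild-type shoot apices and 50.7, 54.2 and 56.0 CPM in rh27-2. All mutant values lay below all wild-type values, at a log2 fold change of -0.42 (SE 0.11, adjusted p = 0.0225, edgeR). AFB3 was 21.6, 24.4 and 19.2 CPM in wild type and 15.4, 17.8 and 18.2 CPM in rh27-2, also without overlap, at -0.40 (SE 0.13, adjusted p = 0.0469). Both calls were near the threshold. The AFB3 call was lost with RLE size factors (adjusted p = 0.0518) and without any library but wild-type replicate 3, at adjusted p up to 0.127. The AFB5 call was lost without wild-type replicate 1 or any single rh27-2 replicate, at adjusted p up to 0.0817.

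TIR1 had the lowest fitted fold change of the 6, from 102, 97.3 and 133 CPM in wild-type shoot apices to 64.9, 88.2 and 93.7 CPM in rh27-2. The groups did not overlap, but at -0.49 (SE 0.19) the test was missed (adjusted p = 0.0731, edgeR). Replicate numbers paired the mRNA libraries of shoot apices, and with the replicate number as a block TIR1 passed at the same fold change (adjusted p = 0.0211). In the fit over all 12 libraries it also passed, at -0.43 (adjusted p = 0.0239). Over all tested genes, 54.9% had groups without overlap in shoot apices.

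The differences of AFB2 and AFB4 did not pass the test. AFB2 was 49.4 ± 2.69 CPM in wild-type shoot apices and 55.2 ± 6.13 CPM in rh27-2 (SD, n = 3), at a log2 fold change of 0.10 (adjusted p = 0.536, edgeR). AFB4 was 16.0 ± 0.695 and 16.5 ± 0.721 CPM, at -0.01 (adjusted p = 0.937).

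AFB1 in shoot apices depended on a single library. It was 15.6, 10.1 and 32.7 CPM in wild type and 35.0, 23.8 and 25.1 CPM in rh27-2, so that wild-type replicate 3 lay among the mutant values. With all libraries the log2 fold change was 0.45 (SE 0.42, adjusted p = 0.41, edgeR), and without wild-type replicate 3 it was 1.05 (adjusted p = 0.0234). That library also had the highest phloem sum of its group, 74.9 CPM against 51.5 and 54.8, and the highest root cap sum, 29.7 CPM against 23.0 and 23.5, of which CEL5 made up 29.5 CPM. It also had the highest shoot meristem sum (52.0 CPM against 47.1 and 30.5) and root stem cell niche sum (100.3 CPM against 91.3 and 91.5). Its photosynthesis sum was the lowest (9230 CPM against 12597 and 11079). Most of the niche sum came from SCR at 78.0 CPM, while WOX5 was lowest in that library, at 1.58 CPM against 5.47 and 7.13. Members of the meristem and photosynthesis lists also differed. KNAT1 was 34.5 CPM against 35.1 and 20.1, and LHCB2.1 was highest there, at 897 CPM against 415 and 795. Whether these go with its AFB1 level was not tested.

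Markers differed between the shoot groups as well, where 21.1% of all genes were called higher and 19.8% lower. Xylem genes were called higher in 4 of 4 cases, with a sum of 65.6 to 69.2 CPM in wild type and 220 to 281 CPM in rh27-2. Phloem genes were called higher in 2 of 3, from 51.5 to 74.9 CPM to 129 to 171 CPM. Of the shoot meristem genes STM, WUS, CLV3 and KNAT1, the 2 that passed the filter were called higher, and the sum of the 4 went from 30.5 to 52.0 CPM to 159 to 208 CPM. Photosynthesis genes were called lower in 3 of 4, from 9230 to 12597 CPM to 2810 to 8127 CPM. Root hair markers stayed at or under 0.596 CPM in every shoot library, with RHD6 at 0 in all wild-type ones. The part of these shifts in the receptor values was not tested.

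**Figure D3:**
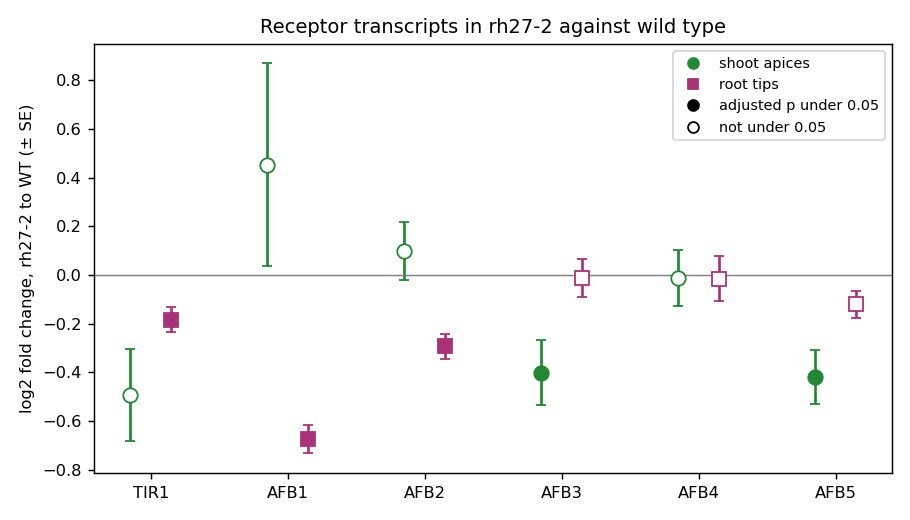
Log2 fold change of each receptor in rh27-2 against wild type (± SE), in shoot apices (circles) and root tips (squares), with filled symbols where the adjusted p is under 0.05. AFB3 and AFB5 were called lower in shoot apices and TIR1, AFB1 and AFB2 in root tips, where total counts lose the TIR1 call. TIR1 lies lower in shoot apices (-0.49) than in root tips (-0.18) without a call there.

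The genotype effect differed between tissues for 2 of the 6 receptors, in a comparison that called 44% of 20798 tested genes. The differences are log2 fold changes of rh27-2 to wild type in root tips minus those in shoot apices. For AFB1 the difference was -1.19 (SE 0.44, adjusted p = 0.0465, edgeR interaction), and for AFB2 it was -0.45 (SE 0.12, adjusted p = 0.0117). For TIR1 the difference was 0.25 (adjusted p = 0.328), for AFB3 0.34 (adjusted p = 0.104), for AFB5 0.24 (adjusted p = 0.119) and for AFB4 -0.06 (adjusted p = 0.768), so the effects on TIR1, AFB3 and AFB5 were not shown to differ between tissues. The AFB1 difference was -1.81 without wild-type shoot replicate 3 (adjusted p = 0.00029), and without any other single library it lost the call, at adjusted p from 0.0537 to 0.0963. Total-count scaling moved the median of all genes in this comparison by 0.23, and the calls changed with it. AFB1 at -0.95 (adjusted p = 0.101) and AFB2 at -0.22 (adjusted p = 0.191) were lost, while AFB3 at 0.57 (adjusted p = 0.0108) and AFB5 at 0.47 (adjusted p = 0.00872) were gained. Relative to the median of all genes the values barely moved, with -1.25 and -1.24 for AFB1 and -0.51 under both scalings for AFB2.

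**Figure D4:**
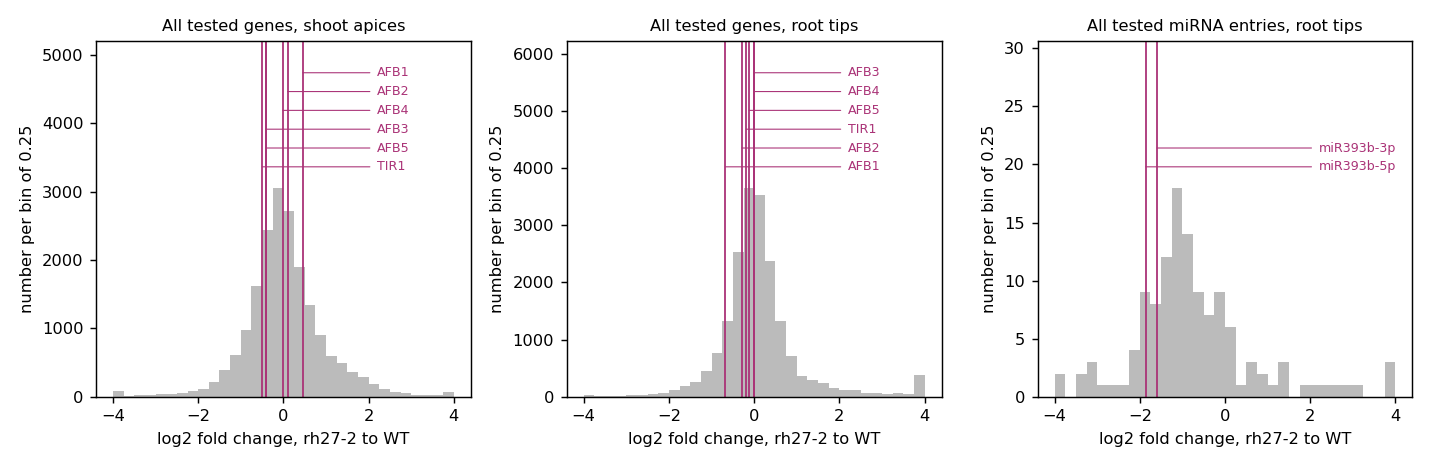
Number of tested genes or miRNA entries per bin of 0.25 in log2 fold change of rh27-2 against wild type, with values beyond 4 placed in the end bins and lines at the receptors and at the miR393 entries. The receptors lie within the bulk of all genes. In root tips miR393b-3p lies on the lower side of a distribution whose median is -0.96. miR393b-5p, also marked, passed the filter only through wild type and had to be lower.

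Across all 4 groups, the order of levels set the receptors apart. For AFB1 and AFB2 the order of means was wild-type root tips, rh27-2 root tips, rh27-2 shoot apices, wild-type shoot apices, with overlap only between the shoot groups. TIR1 went from wild-type root tips to rh27-2 root tips, then wild-type shoot apices and rh27-2 shoot apices, and its middle groups overlapped. AFB3 had the same order with overlap between the root groups. AFB4 overlapped within each tissue, and its means lay between 16.0 and 18.4 CPM. AFB5 was highest in wild-type shoot apices at 68.8 ± 7.05 CPM, which overlapped wild-type root tips at 67.4 ± 1.50 CPM, and lowest in rh27-2 shoot apices at 53.6 ± 2.69 CPM (SD, n = 3).

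The summed CPM of the 6 receptors was 464, 452 and 462 in wild-type root tips and 398, 385 and 378 in rh27-2 root tips. In shoot apices it was 276, 261 and 322 in wild type and 232, 258 and 268 in rh27-2. The sum was lower in every rh27-2 root tip library than in the wild-type ones, also when CPM was taken over total counts (469 ± 5.64 against 420 ± 9.25, SD, n = 3). In shoot apices the groups overlapped in TMM-scaled CPM but not over total counts (286 ± 37.5 against 228 ± 20.6, SD, n = 3). Per kb, the share of AFB1 in root tips went from 20.4% ± 0.227 to 15.3% ± 0.699 and that of AFB5 from 16.0% ± 0.111 to 17.7% ± 0.506. In shoot apices the share of TIR1 was 33.3% ± 2.14 in wild type and 27.6% ± 3.54 in rh27-2. These sums and shares are descriptions and were not tested.

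**Figure D5:**
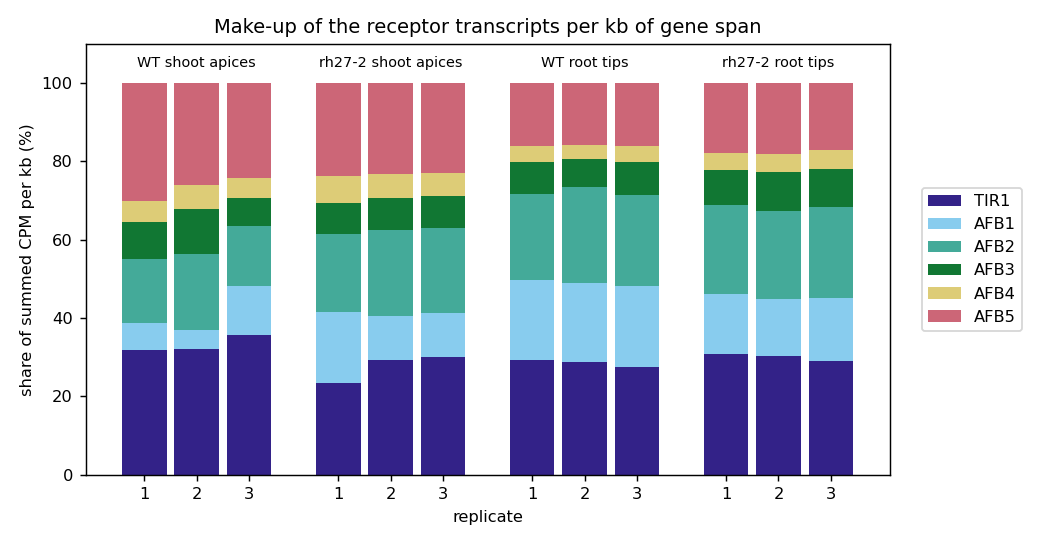
Share of each receptor in the summed CPM per kb of gene span, in percent, as a stacked bar for each mRNA library. The AFB1 share is near 20.4% in wild-type root tips and 15.3% in rh27-2 root tips, and varies from 4.76% to 18.0% among shoot libraries.

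Other genes tied to miR393 did not follow a single direction. AT3G23690, a basic helix-loop-helix gene listed as BHLH77 and a known miR393 target, rose in shoot apices from 52.3 ± 0.811 to 83.7 ± 8.04 CPM (SD, n = 3; log2 fold change 0.62, adjusted p = 0.00479, edgeR). It fell in root tips from 121 ± 2.94 to 96.8 ± 4.34 CPM (log2 fold change -0.33, adjusted p = 0.000102), and the difference between tissues passed the test (-1.003, adjusted p = 4.62e-05). MEMB12 (AT5G50440), the known target of miR393b-3p, was added after its values were seen. It was 7.71 ± 0.891 and 11.7 ± 1.02 CPM in shoot apices (log2 fold change 0.54, adjusted p = 0.0317), a call lost when any library but wild-type replicate 3 was left out (adjusted p up to 0.11), and 6.32 ± 1.39 and 8.09 ± 0.520 CPM in root tips (log2 fold change 0.35, adjusted p = 0.0686). COI1, the jasmonate receptor and nearest F-box relative outside the family, was not called in either tissue (-0.05, adjusted p = 0.744 in shoot apices and -0.08, adjusted p = 0.255 in root tips).

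Among the genes whose log2 CPM was most like that of each receptor over the 12 mRNA libraries, out of 7740 with a symbol and enough counts, AFB2 had the closest partners. These were ZFHD1, a zinc-finger homeodomain gene (Pearson r = 0.997), PIP2B, an aquaporin gene (0.994), and CYP706A7 (0.993). AFB1 was most like LNG1 (0.988), the cytokinin response regulator gene RR5 (0.982) and RCI2A (0.98). TIR1 was most like the kinase gene TOR (0.971), the gibberellin receptor gene GID1C (0.967) and HFR1 (0.963), and AFB3 was most like NFD1 (0.973), CLS (0.964) and DECOY (0.963). AFB5 came nearest to HB27 (0.925), HON5 (0.919) and GRF4 (0.914). AFB4, which varied least, reached only 0.853 with FIP1, 0.85 with RGTA1 and 0.833 with SAC3C. The 12 libraries fall into 4 groups, so these values mostly describe group means and carry no test.

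Of 14 genes for the SCF complex that holds the receptors and its regulators, 2 were called higher and 1 lower in shoot apices, and 3 higher and 2 lower in root tips, where the shares over all genes were 40.9% and 62.1% in either direction. In shoot apices these were RCE1 (log2 fold change 0.50, adjusted p = 0.0101, edgeR) and RUB1 (0.48, adjusted p = 0.0101), which serve the RUB modification of cullins, and AXL (-0.54, adjusted p = 0.0207), a relative of AXR1. In root tips AXR1 (0.21), CSN5A (0.18) and RUB2 (0.16) were higher and the adaptor ASK2 (-0.31) and SGT1B (-0.32) lower, at adjusted p from 0.00015 to 0.0245. The AXL call was lost in 5 of the 6 fits that left out a library, and those of CSN5A and RUB2 with DESeq2 (adjusted p = 0.0934 and 0.0618). RUB1 and RUB2 are near-identical genes, and how shared reads were counted is not given in the sources used here. The 8 other hormone F-box genes had 3 higher and 0 lower in shoot apices and 3 higher and 1 lower in root tips, beside the same shares. The ethylene pathway genes EBF1 (0.34 and 0.37) and EBF2 (0.79 and 1.01) were higher in both tissues, SLY1 (0.38) in shoot apices and SNE (2.57), both of the gibberellin pathway, in root tips, and the strigolactone pathway gene MAX2 (-0.47) was lower in root tips. In shoot apices the calls of EBF1 and SLY1 were lost with total counts (adjusted p = 0.109 and 0.0727, edgeR). Each was also kept in only 1 of the 6 fits that left out a library (adjusted p up to 0.142 and 0.119, edgeR). The root tip call of EBF1 was lost with no filter (adjusted p = 0.0588, edgeR). The calls of EBF2 were lost without some single libraries in either tissue (adjusted p up to 0.11, edgeR).

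The substrates and outputs of the receptors moved in both directions. Of the 29 Aux/IAA genes, 24 were tested in shoot apices, with 8 higher, 5 lower and a median of 0.18. Over all genes 21.1% were higher and 19.8% lower there, with a median of -0.02. IAA17 (log2 fold change 1.56), IAA7 (1.28) and IAA27 (1.21) rose there and IAA4 (-1.17) fell. In root tips 25 were tested, with 10 higher, 7 lower and a median of 0.02. Over all genes 31.3% were higher and 30.9% lower there, with a median of 0.01. IAA26 (1.42), IAA27 (1.33) and IAA4 (0.62) rose there and IAA3 (-1.49) fell. All of these had an adjusted p of at most 0.00277 with edgeR. The counts of tested genes include some whose direction was set by the filter. In shoot apices IAA5 (9, 8 and 4 counts in wild type, 25, 28 and 20 in rh27-2) passed only through rh27-2. IAA30 there (39, 53 and 20 against 9, 2 and 1 counts) passed only through wild type, as did IAA6 in root tips (15, 13 and 34 against 7, 5 and 9 counts). Such genes are not support.

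Of 10 auxin-induced genes, 7 were tested in shoot apices, with 3 higher and 3 lower, and 9 in root tips, with 3 higher and 2 lower. So 6 of 7 and 5 of 9 were called where 40.9% and 62.1% of all genes were. Among the 3 higher in shoot apices is LBD18, with 6, 8 and 6 counts in wild type and 13, 26 and 26 in rh27-2. LBD18 passed the filter there only through rh27-2 and so had to be higher, which is not support. The GH3 genes encode enzymes that conjugate auxin to amino acids. In shoot apices GH3.1 (2.27) rose and GH3.2 (-2.72), GH3.3 (-2.44) and GH3.5 (-2.08) fell, at adjusted p up to 0.00404 (edgeR). In root tips GH3.3 (3.32) rose from 2.86 ± 0.571 to 28.5 ± 4.02 CPM (SD, n = 3), GH3.1 and the lateral root gene LBD16 rose by 1.1 each on the log2 scale, and GH3.2 (-0.59) fell, the last of which lost its call in the fit over all 12 libraries (adjusted p = 0.0739).

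Auxin synthesis genes fell in shoot apices, with 7 of 8 tested genes lower and a median of -1.55, where 19.8% of all genes were lower. TAA1 (-2.41) and TAR2 (-1.58), which make indole-3-pyruvate, went from 10.1 ± 1.01 to 1.95 ± 0.653 CPM and from 19.3 ± 4.42 to 6.71 ± 0.522 CPM (SD, n = 3), and YUC5 (-1.59, adjusted p = 0.0144, edgeR) fell as well. YUC2, a flavin monooxygenase gene of the next step, had 33, 19 and 19 counts in wild-type shoot apices and 0, 1 and 0 in rh27-2. It is among the 7, but it passed the filter there only through wild type and so had to be lower, which is not support. In the fits that left out a library the count of lower genes was 3 to 6. It was 3 without rh27-2 shoot replicate 2, where YUC5 was among those lost (adjusted p = 0.0608, edgeR). In root tips 4 of 8 were higher and 1 lower, with a median of 0.22, where 31.3% of all genes were higher and 30.9% lower. TAR2 (0.50), YUC6 (0.61) and YUC2 (2.27, from 2, 9 and 7 to 34, 25 and 40 counts) rose and YUC3 (-1.02) fell. YUC2 passed the filter in root tips only through rh27-2, so its rise is not counted as support either.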

How the data were processed

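Counts of reads per locus were deposited by the authors without a header. The authors computed the RP30M signal of each miRNA entry, per the file headers. An entry not listed in a library was taken as 0. The submitters' processing notes name TopHat2, HTSeq, edgeR, Bowtie2 and the TAIR10 build, without roles. Strand and the handling of reads shared by close paralogues (AFB2 and AFB3, AFB4 and AFB5) are not given in the sources used here. Symbols came from a RefSeq table of TAIR10.1, which matched 33056 of 33341 loci and gave the gene spans.

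Genes were tested with edgeR 4.0.16 in R 4.3.3 (filterByExpr with a minimum count of 10, TMM, robust quasi-likelihood). Entries were tested with limma 3.58.1 on log2(RP30M + 1), where at least 3 libraries reached 30 RP30M. The pseudocount understates changes of low entries. The limma variance was fully pooled for 79 of 79 tested entries in shoot apices and 123 of 125 in root tips. The limma p-values within a tissue thus rest on a shared variance. In the fits across tissues it was fully pooled for 0 of 132 entries. p-values were adjusted by the Benjamini-Hochberg method over all features, at 0.05. Tests across tissues used all 12 libraries of an assay.

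Divided by the smallest value of its library, every RP30M value came out whole to within 0.001, which gave the depths and read numbers. These, the Wilson intervals and the floors assume that the smallest value is a single read, which was not settled. The planned count test on those reads was not run, and limma was used. The fits were also run on simulated data, with the same spread for all genes or entries and no replicate pairs. Those data do not cover the wider spread of the shoot mRNA libraries, and no result above rests on them. No mRNA replicates agreed within sampling noise, which was not checked for the small RNA libraries. Deviations of same-numbered libraries correlated at 0.448, 0.426 and 0.16 in shoot mRNA and 0.24, 0.242 and 0.244 in root small RNA. The replicate numbers thus paired libraries there. The main fits ignored this pairing, and p-values come from unpaired fits unless a block is named. Alternatives were DESeq2 1.42.0, other scalings and filters, the replicate block and leaving out each library.

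Members, gene lists and tests were chosen with earlier results of these data known. The genes named are the receptors, the miR393 entries and precursors, AT3G23690, COI1, called SCF members, up to 4 called members of each auxin list by adjusted p, the markers, and the 3 genes most like each receptor. IAA5, IAA6, IAA30 and LBD18 are named only for how they passed the filter. They are not among the 38 genes considered for the flagged results below.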

Additional observations from a re-analysis of the deposited data

Results flagged for a closer look

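The genotype effect differed between root tips and shoot apices, by the interaction term of edgeR, for 23 of the 38 tested genes among the receptors, AT3G23690, COI1 and the genes named from the auxin, SCF and F-box lists, and by that of limma for 1 miRNA entry. Over all features 44% of genes and 40.2% of entries passed in this comparison. Many of the 38 genes were named because they were called within a tissue of these same data. Their share is therefore selected and cannot be compared with that over all genes. The markers that passed were 4 of 4 for xylem, 3 of 3 for phloem, 3 of 4 for photosynthesis, 2 of 5 for the root stem cell niche, 1 of 4 for the root cap, 1 of 3 for root hairs and 0 of 2 for the shoot meristem. Values are root tip minus shoot apex differences of log2 fold changes. Among the receptors these were AFB1 (-1.19, adjusted p = 0.0465) and AFB2 (-0.45, adjusted p = 0.0117). AT3G23690, listed as BHLH77, differed by -1.003.

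Of the SCF and F-box genes, AXL (0.57) and SNE (2.56) were positive, and RCE1 (-0.66), RUB1 (-0.50), MAX2 (-0.63) and SLY1 (-0.46) negative. With total counts RUB1, MAX2 and SLY1 lost the call (adjusted p = 0.124, 0.182 and 0.167), and MAX2 kept it in 3 of 12 fits that left out a library. Of the Aux/IAA genes, IAA4 (1.74) and IAA26 (0.99) were positive, and IAA3 (-1.56), IAA7 (-1.44) and IAA17 (-2.26) negative. GH3.2 (2.07), GH3.3 (5.70) and GH3.5 (1.84) were positive and GH3.1 (-1.23) negative. The synthesis genes TAA1 (2.60), TAR2 (2.03), YUC5 (1.47), YUC6 (2.07) and YUC2 (7.83) were all positive, and YUC5 kept the call in 4 of 12 fits that left out a library and lost it with RLE size factors (adjusted p = 0.0519). The YUC2 value rests on 1 count over the rh27-2 shoot libraries and depends on how 0 counts are handled.

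The entry miR393b-5p differed by -1.57 (adjusted p = 0.0327). It had 2 reads over all shoot libraries and passed the filter only through wild-type root tips, so this value depends on the pseudocount. The test for a single sample far from its group needs 4 or more samples, so it was not applied to groups of 3.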

How the results depend on the processing

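None of the alternatives reversed the direction of a called value. With RLE size factors 1 receptor was called in shoot apices in place of 2, in the fit over all 12 libraries 1 in root tips in place of 3, and with no filter 1 in the genotype by tissue comparison in place of 2, where AFB1 was lost (adjusted p = 0.0675, edgeR). The miR393 entries called in that comparison went from 1 to 2 with a pseudocount of 10, where miR393b-3p passed (adjusted p = 0.0405, limma), and to 0 with no filter and when scaled to the sum of listed miRNAs.

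Leaving out each library in turn gave 0 to 3 receptors called in shoot apices, 3 in root tips, 1 to 3 for genotype by tissue and 4 to 5 between the wild-type tissues. It gave 1 to 2 miR393 entries in root tips and between wild-type tissues, since miR393b-5p fails the filter without any wild-type root tip library, and 0 to 2 for genotype by tissue. All genes called ranged from 4491 to 7570 in shoot apices, and all entries called from 20 to 35 in shoot apices and 33 to 59 for genotype by tissue. miR393b-3p in root tips stayed called, at -1.92 to -1.40. With no filter, 190 entries were called between the wild-type tissues. With the replicate number as a block, the receptors gained TIR1 in shoot apices (adjusted p = 0.0211, edgeR) and lost none. The genotype by tissue difference of AFB1 was -1.32 with that block (adjusted p = 0.0183, edgeR).

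The count test on whole reads was not run, because too few low values were listed in most small RNA libraries to accept them as counts. Depth limits the miR393 entries in shoot apices, where 5p values under 1.67 to 9.62 RP30M could not be seen in libraries with 0 reads.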
